A study of Mus musculus with 10 samples.

Results

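Complex I of the mitochondrial respiratory chain was described here by the 42 Nduf genes of purified mouse cardiomyocytes (CMs) from old and young mice. The members were all rows of the expression table whose gene symbol starts with Nduf, with no ending -ps, 1 row per symbol and an average of 1 FPKM or more over the 10 libraries. FPKM are fragments per kilobase of exon, scaled to the mapped fragments of the library. All 42 rows passed, out of 37819 features in the table and 12340 that reached this mean and were tested. The members were 7 core subunits, 31 accessory subunits and 4 assembly factors (Ndufaf1, Ndufaf2, Ndufaf3 and Ndufaf4). Old CMs came from mice of 20 months and young CMs from mice of 3 months, with 5 libraries of total RNA per age. All mice were of the inbred strain C57BL6J from 1 supplier, and neither a mutation nor a drug set the groups apart. The study's methods describe mice of both sexes for CM isolation, and the sex of each library is not given in the sources used here. Hearts were digested on a Langendorff perfusion setup, and cells positive for CD31, SCA1 or CD45 were taken out with magnetic beads before RNA was extracted. All libraries ran on a single flow cell, and the labels do not say that each library is 1 mouse. The study's text gives, in 1 place, fewer sequenced mice per age than there are libraries, and in another 5 per age for heatmaps of genes and secreted proteins. The p-values therefore measure the spread between libraries, which may be technical in part.

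Complex I (NADH:ubiquinone oxidoreductase) takes electrons from NADH, passes them along a flavin and a chain of iron-sulphur clusters to ubiquinone, and pumps protons across the inner mitochondrial membrane. Its matrix arm holds the module that oxidises NADH (N) and the module that reduces ubiquinone (Q), and its membrane arm carries the proton pumps. The core subunits of the matrix arm are encoded in the nucleus, those of the membrane arm by mitochondrial DNA, and the accessory subunits surround the core. Assembly factors help to build the complex and are not part of the finished enzyme. The heart depends on oxidative phosphorylation for most of its ATP, and its CMs are packed with mitochondria.

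All 10 cardiomyocyte markers examined were present, with a summed level of 51451 to 59114 FPKM in old CMs, against 55363 to 65674 FPKM in young CMs. Markers of other heart cells were present at lower levels. The 8 endothelial markers summed to 140 to 268 FPKM in old CMs, against 111 to 246 FPKM in young CMs, and the fibroblast, leukocyte and mural markers were likewise highest in old library 1 and young library 4. Of the 9 leukocyte markers, Cd3e and Cd79a, which define lymphocytes, were at or near 0. The depth of the libraries is not stated, and steps in the low values put it at about 24200000 to 31500000 fragments per library.

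Each of the 42 Nduf genes had a lower mean on the log2 scale in old CMs than in young CMs, by a small amount, and none passed the test on its own. The median log2 difference (old minus young, on log2(FPKM + 1)) over the 42 genes was -0.18, and the genes ranged from -0.26 for Ndufaf4 to -0.05 for Ndufa11. In the same fit, 68.7% of all tested features lay below 0, with a median of -0.06, and the 521 other protein-coding features that averaged 100 FPKM or more had a median of -0.10. With limma and Benjamini-Hochberg adjustment over all tested features, 0 of the 42 genes had an adjusted p under 0.05, against 1.78% of all features (1.09% lower and 0.689% higher in old CMs). At an unadjusted p under 0.05, 37 of the 42 genes were lower in old CMs and 0 were higher, beside 17.4% and 3.51% of all features, which add up to 20.9%. In 15 of the 42 genes every old library lay below every young library, which was so for 5.72% of all features, and in 0 genes every old library lay above every young one, as in 1.19% of all features. Both counts rested on the scaling of the libraries. With median-ratio scaling 7 of the 42 genes and with upper-quartile scaling 4 were lower at an unadjusted p under 0.05. The 17.4% of all features is that of the deposited FPKM, and the share at that p under either scaling is not given here. In 0 of the 42 genes did every old library lie below every young one under either scaling (1.67% and 1.22% of all features). The upper-quartile median of the 42 genes was -0.10, beside 0.02 for all features. The separation of the ages given for single genes is therefore that of the deposited FPKM. The study itself examined the respiratory chain in these libraries, so the counts are not independent evidence of a direction. In such bulk samples, fewer cells of a type and less RNA per cell cannot be told apart.

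Added over the 42 genes, the level was 14793, 16642, 16198, 15880 and 16604 FPKM in old libraries 1 to 5, against 20302, 17240, 17968, 17377 and 17672 FPKM in young libraries 1 to 5. The old libraries all lay below the young ones, with old library 1 lowest and young library 1 highest. The mean was 16024 ± 756 FPKM in old CMs and 18112 ± 1256 FPKM in young CMs (SD, n = 5 each), a difference of -11.5%. After median-ratio scaling the ages overlapped, with 14898 to 16874 in old CMs, against 16380 to 19450 in young CMs, and a difference of -7.24%, and it was -5.94% after upper-quartile scaling, again with overlap. In the deposited FPKM the classes differed little in this share, at -12.4% for the core subunits, -11.3% for the accessory subunits and -13.3% for the assembly factors. Assembly factors together amounted to 3.87 ± 0.22% of the level of the core subunits in old CMs and 3.90 ± 0.16% in young CMs (SD, n = 5 each).

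**Figure D1:**
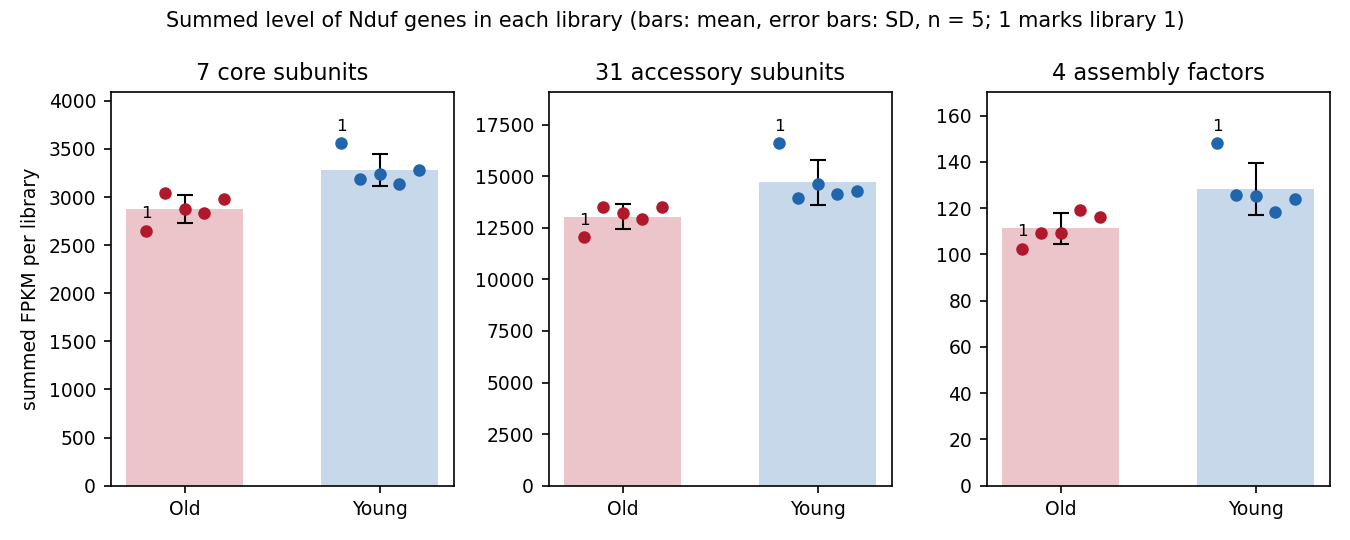
Summed FPKM of the core subunits, accessory subunits and assembly factors in each library, old left of young; points are libraries, bars are means and error bars are SDs of 5 libraries, and library 1 of each age is marked. Old and young libraries do not overlap for the core and accessory subunits and overlap for the assembly factors, and young library 1 is the highest point in each panel.

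The promoters of the Nduf genes were read for the binding letters of factors known to act on genes of the respiratory chain. Of the 42 genes, 37 had an entry among the RefSeq promoter windows (build GRCm38.p6), which run over 300 bases from 250 before to 50 after the start. The letters of nuclear respiratory factor 1 (NRF1, its consensus searched on both strands like those of the other factors) stood in 8 of these 37 genes, or 21.6%, against 5.19% of the 27025 genes in the table. The letters of YY1 (AAGATGGCG) stood in 5 of 37, or 13.5%, against 1.64%, and those of the oestrogen-related receptors (ERR, AAGGTCA) in 3 of 37, or 8.11%, against 5.38%. The letters of the ETS family (CCGGAAGT) stood in 1 of 37, or 2.70%, against 4.31%. A match is a description of the letters, and the binding of none of these factors was measured. The 27025 genes were not limited to those expressed in CMs, so the shares do not set like against like. The windows of Ndufb4 and Ndufs5, accessory subunits with both NRF1 and ERR letters, of Ndufs7, a core subunit with YY1 letters, and of Ndufa11, which lay nearest to 0 despite NRF1 letters, are given 5′ to 3′ on the strand of the gene, with the matches in capitals. They lie at chr16:37654319-37654618 (minus strand), chr4:123718137-123718436 (minus strand), chr10:80249199-80249498 (plus strand) and chr17:56717512-56717811 (plus strand).
Ndufs7: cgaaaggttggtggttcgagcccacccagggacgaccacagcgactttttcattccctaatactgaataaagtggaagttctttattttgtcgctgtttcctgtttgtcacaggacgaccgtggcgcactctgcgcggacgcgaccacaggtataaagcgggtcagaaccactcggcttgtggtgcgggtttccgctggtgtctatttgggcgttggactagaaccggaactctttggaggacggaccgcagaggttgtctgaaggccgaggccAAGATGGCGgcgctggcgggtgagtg
Ndufs5: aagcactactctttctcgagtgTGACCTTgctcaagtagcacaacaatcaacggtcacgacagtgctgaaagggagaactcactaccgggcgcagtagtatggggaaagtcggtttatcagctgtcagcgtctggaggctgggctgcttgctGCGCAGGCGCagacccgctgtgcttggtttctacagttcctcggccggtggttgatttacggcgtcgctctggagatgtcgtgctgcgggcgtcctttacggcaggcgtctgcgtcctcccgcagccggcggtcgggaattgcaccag
Ndufb4: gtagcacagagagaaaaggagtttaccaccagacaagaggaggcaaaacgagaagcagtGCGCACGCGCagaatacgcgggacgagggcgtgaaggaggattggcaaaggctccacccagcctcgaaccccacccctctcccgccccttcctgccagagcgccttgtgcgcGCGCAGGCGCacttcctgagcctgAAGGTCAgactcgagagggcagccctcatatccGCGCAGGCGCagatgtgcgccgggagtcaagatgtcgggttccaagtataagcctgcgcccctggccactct
Ndufa11: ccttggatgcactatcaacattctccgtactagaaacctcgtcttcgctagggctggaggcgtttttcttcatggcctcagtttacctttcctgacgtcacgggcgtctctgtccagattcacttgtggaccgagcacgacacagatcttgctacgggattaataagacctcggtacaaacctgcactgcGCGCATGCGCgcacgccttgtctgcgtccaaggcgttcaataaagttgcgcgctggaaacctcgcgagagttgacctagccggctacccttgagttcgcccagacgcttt

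The 3 NRF1 matches of Ndufb4 begin 191, 79 and 22 bases before the start, and its ERR match 55 bases before it, whereas the YY1 match of Ndufs7 lies after the start. Of the 8 genes with NRF1 letters, Ndufb4, Ndufs5 and Ndufs6 were among the 15 genes whose libraries did not overlap, and Ndufa11 and Ndufa8 were among the 5 that missed an unadjusted p of 0.05. The presence of the letters and the size of the difference were not tested against each other.

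Among the core subunits, all 7 were lower in old CMs at an unadjusted p under 0.05 and 0 of 7 passed the adjusted threshold, beside 17.4% and 1.78% of all features, with a median log2 difference of -0.18. Ndufv2 (chr17:66428135-66450899 of mm9, minus strand), which carries an iron-sulphur cluster next to the flavin site of the N module, had 397, 419, 408, 429 and 457 FPKM in old CMs, against 548, 474, 490, 469 and 472 FPKM in young CMs. Every old library lay below every young library, by the narrowest margin between old library 5 and young library 4. The log2 difference was -0.22 ± 0.06 (SE), with a limma adjusted p of 0.0804, the smallest of the 42 genes. The exact permutation test on FPKM gave p = 0.0079, the smallest that 5 against 5 libraries allow. This value follows from the lack of overlap, so it adds nothing to it, and 15 of the 42 genes had it.

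Ndufs7 (chr10:79711866-79719539, plus strand), which lies next to the ubiquinone site and holds the last cluster of the chain, had 479, 544, 516, 500.26 and 499.96 FPKM in old CMs, against 721, 583, 595, 564 and 574 FPKM in young CMs. The groups did not overlap, and young library 1 stood well above the other young libraries. Its log2 difference was -0.25 ± 0.07 (SE), with a limma adjusted p of 0.0905. Ndufs8, another carrier of iron-sulphur clusters in the Q module, had 184, 214, 204, 203 and 207 FPKM in old CMs, against 266, 219.9, 236, 219.9 and 224 FPKM in young CMs. Here too the old libraries all lay below the young ones, with a log2 difference of -0.20 ± 0.06 (SE) and a limma adjusted p of 0.117. Ndufs3, an early-assembling part of the Q module, had 271, 304, 298, 293 and 302 FPKM in old CMs, against 379, 316, 325, 319 and 333 FPKM in young CMs. The groups again did not overlap, at -0.18 ± 0.06 (SE) with a limma adjusted p of 0.116.

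Ndufv1, which binds NADH and the flavin, and Ndufs1, the large iron-sulphur subunit of the N module, were core subunits in which the ages overlapped. Ndufv1 had 462, 557, 520, 489 and 519 FPKM in old CMs, against 568, 568, 557, 546 and 608 FPKM in young CMs. Ndufs1 had 259, 292, 266, 283 and 309 FPKM in old CMs, against 308, 317, 309, 305 and 320 FPKM in young CMs. In both, old library 1 was lowest while young library 1 was not the highest young library.

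Among the 31 accessory subunits, 27 were lower in old CMs at an unadjusted p under 0.05, 0 passed the adjusted threshold, and 10 had all old libraries below all young ones, beside the 17.4%, 1.78% and 5.72% of all features. Ndufb4, in the distal part of the membrane arm, had 119, 132, 127, 132 and 132 FPKM in old CMs, against 167, 139, 145, 142 and 147 FPKM in young CMs. Its groups did not overlap, and the log2 difference was -0.20 ± 0.06 (SE) with a limma adjusted p of 0.0919. Ndufs5, on the intermembrane side of the membrane arm, had 291, 326, 315, 302 and 329 FPKM in old CMs, against 406, 343, 359, 348 and 348 FPKM in young CMs. Old libraries again all lay below young ones, at -0.20 ± 0.06 (SE) with a limma adjusted p of 0.0940. Reads of both genes may be shared with near-identical pseudogenes, since Gm3244 matches Ndufb4 over 210 bases at 100% and BC002163 matches Ndufs5 over 321 bases at 99.4%, so their values are uncertain. The same holds for Ndufs3, which Gm12251 matches over 248 bases at 98.8%, and for Ndufa12 and Ndufb11. In Ndufb6, 257 bases of the exons also belong to 2010003O02Rik, a transcript on the opposite strand.

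Ndufa13, an accessory subunit of the proximal membrane arm, had 205, 238, 233, 207 and 222 FPKM in old CMs, against 280, 235, 251.99, 255 and 255 FPKM in young CMs. Only old library 2 reached into the young range, and the log2 difference was -0.21 ± 0.06 (SE) with a limma adjusted p of 0.0971. Ndufb5, in the distal membrane arm, had 529, 594, 587, 570 and 602 FPKM in old CMs, against 728, 634, 651, 625 and 643 FPKM in young CMs. Its groups did not overlap, at -0.19 ± 0.05 (SE) with a limma adjusted p of 0.103, and 158 bases of its exons also belong to Mrpl47 on the opposite strand. Ndufv3, a small subunit of the N module, showed the lowest log2 difference of the accessory subunits, with 427, 497, 480, 472 and 476 FPKM in old CMs, against 662, 533, 561, 506 and 527 FPKM in young CMs. Without overlap, its log2 difference was -0.24 ± 0.07 (SE) and its limma adjusted p 0.115. The other accessory subunits without overlap were Ndufs6, which binds zinc in the N module, at -0.19, Ndufb10 at -0.21, Ndufb7 at -0.18, Ndufb9 at -0.15, Ndufa10 at -0.14 and Ndufa4 at -0.16, with limma adjusted p-values of 0.119 to 0.142.

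The members with the highest and the lowest level are both assigned outside complex I by present knowledge. Ndufa4, now placed in cytochrome oxidase, had 1519, 1678, 1666, 1635 and 1736 FPKM in old CMs, against 2038, 1741, 1806, 1837 and 1807 FPKM in young CMs, so that its groups were separated by a narrow margin. Ndufa4l2, its paralogue, known as a gene induced by low oxygen, had 13.2, 5.57, 6.68, 4.53 and 6.61 FPKM in old CMs, against 6.84, 9.38, 6.59, 12.3 and 6.09 FPKM in young CMs. It was highest in old library 1 and young library 4, and its log2 difference of -0.19 ± 0.25 (SE) was smaller than its error. The marker Rgs5 of mural cells had its highest levels in the same libraries, 117 FPKM in old library 1 and 115 FPKM in young library 4, and 46.4 to 79.2 FPKM in the others. Acta2, another mural marker, did not follow, with 13.9 FPKM in old library 1, 20.0 FPKM in young library 4 and 64.8 FPKM in young library 1. The summed endothelial and fibroblast markers were also highest in old library 1 and young library 4, so the match was not particular to mural cells. The part of any of these cells in the level of Ndufa4l2 was not tested. Without Ndufa4 and Ndufa4l2, the 36 subunits had a median log2 difference of -0.18 and 0 of 36 passed the adjusted threshold.

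Ndufa11, a membrane-arm subunit at the contact with complex III, was singled out after its values were seen, because its log2 difference lay nearest to 0. It had 72.9, 81.2, 83.4, 74.6 and 75.6 FPKM in old CMs, against 91.1, 74.5, 81.8, 77.5 and 76.7 FPKM in young CMs. Only old library 1 lay below all young libraries, and the log2 difference was -0.05 ± 0.06 (SE) with a limma adjusted p of 0.715. Relative to the median of the 42 genes in each library, Ndufa11 was higher in old CMs by 0.12 on the log2 scale, whereas Ndufaf4 and Ndufs7 differed by -0.10 and -0.09. The direction of Ndufa11 depended on the scaling of the libraries, and was 0.02 with median-ratio scaling and 0.04 with upper-quartile scaling.

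The parts of the enzyme had similar differences. The median log2 difference was -0.19 for the 8 genes of the N module, -0.17 for the 8 of the Q module, -0.16 for the 9 of the proximal membrane arm and -0.18 for the 11 of the distal membrane arm. All old libraries lay below all young libraries in 3, 4, 2 and 5 genes of these parts, in that order, beside 5.72% of all features.

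**Figure D2:**
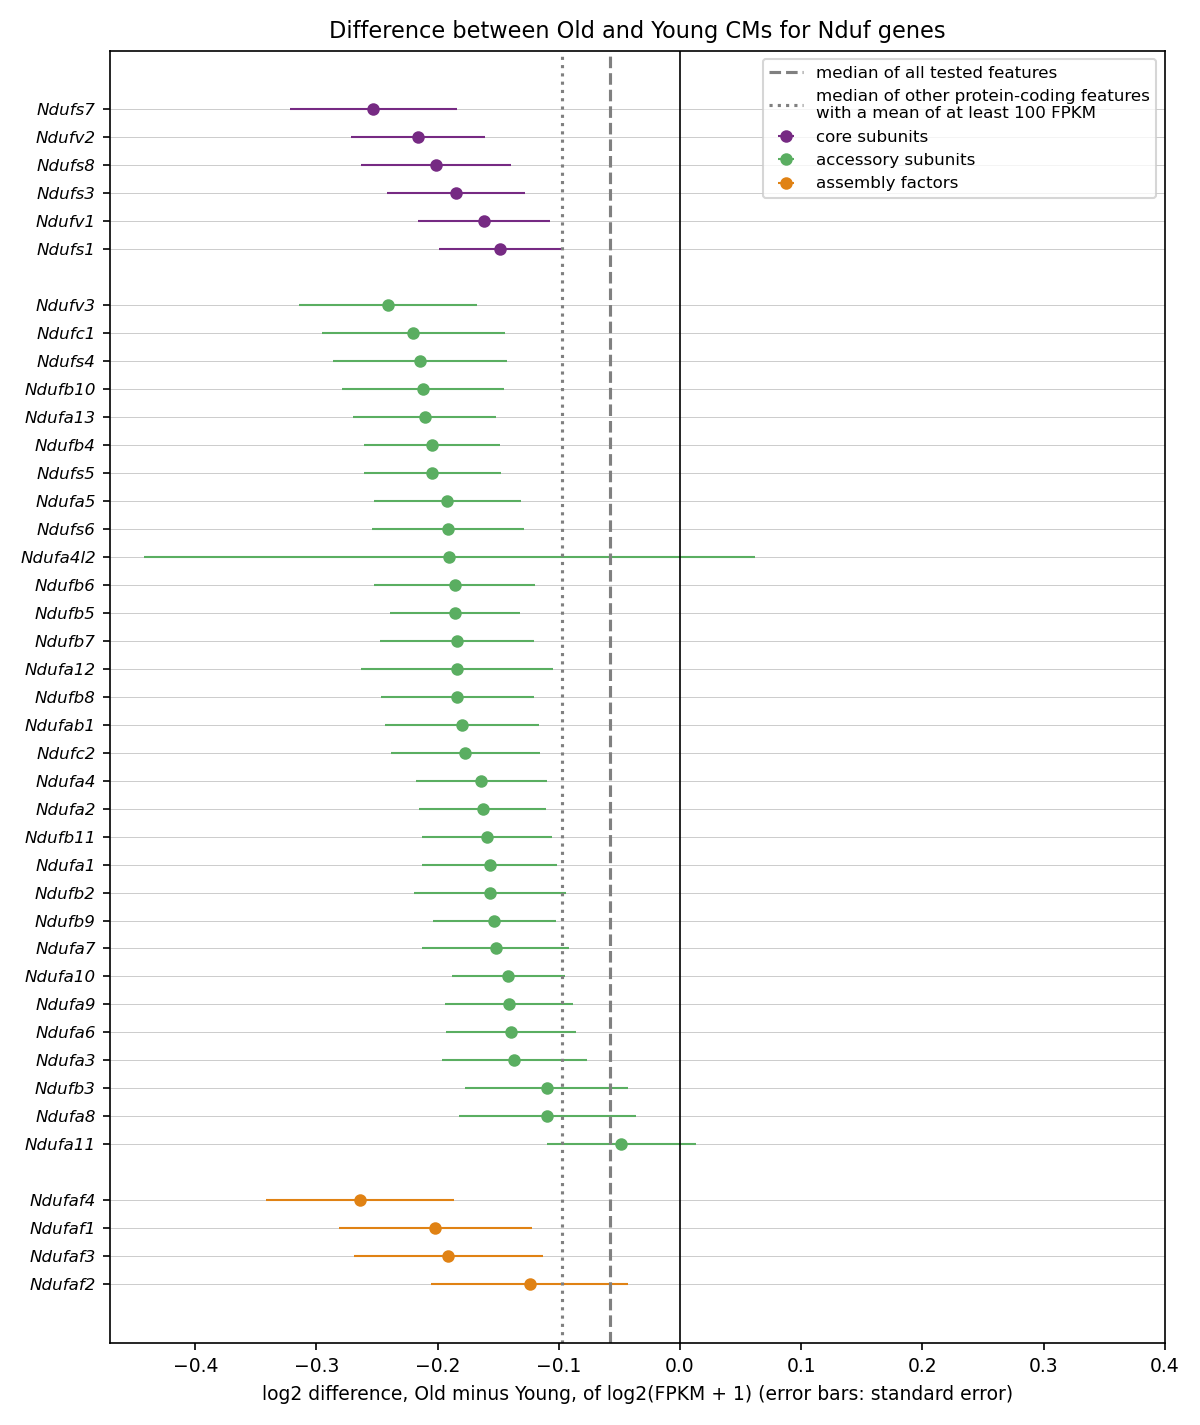
Log2 difference (old minus young, on log2(FPKM + 1)) of 41 Nduf genes with its standard error (n = 5 libraries per age), grouped by class; the dashed line is the median of all tested features and the dotted line that of other protein-coding features that averaged 100 FPKM or more. All 41 points lie left of 0, from -0.26 for Ndufaf4 to -0.05 for Ndufa11, and Ndufa4l2 has the widest error bar.

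The 4 assembly factors were expressed at 19.6 to 33.1 FPKM in old CMs, against 22.6 to 38.4 FPKM in young CMs (means of 5 libraries). Of these, 3 were lower in old CMs at an unadjusted p under 0.05 and 0 of 4 passed the adjusted threshold. In 0 of 4 all old libraries lay below all young ones. The shares of all features were 17.4%, 1.78% and 5.72%, in that order. Ndufaf4, which acts with Ndufaf3 on the early Q module, had 27.2, 27.5, 27.3, 31.1 and 27.5 FPKM in old CMs, against 39.1, 35.8, 35.9, 29.7 and 30.2 FPKM in young CMs. Old library 4 alone reached into the young range, in which libraries 4 and 5 were low. Its log2 difference of -0.26 ± 0.08 (SE) was the lowest of the 42 genes, with a limma adjusted p of 0.107. Ndufaf3 had 18.7, 19.7, 19.2, 19.9 and 20.4 FPKM in old CMs, against 28.1, 21.4, 20.3, 21.3 and 22.03 FPKM in young CMs. Young library 1 lay far above the rest, and old library 5 overlapped young library 3. Ndufaf1, a factor of the membrane arm that works with Ecsit and Acad9, averaged 33.1 ± 2.1 FPKM in old CMs and 38.4 ± 4.8 FPKM in young CMs (SD, n = 5 each). Ndufaf2, which holds the place of Ndufa12 until the end of assembly, averaged 30.4 ± 3.6 FPKM in old CMs and 33.1 ± 2.1 FPKM in young CMs (SD, n = 5 each), with an unadjusted limma p of 0.158.

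A single library of each age accounted for much of the spread. Old library 1 was the lowest of the 10 libraries in 39 of the 42 genes, and young library 1 the highest in 38 of 42. The summed cardiomyocyte markers were likewise lowest in old library 1 (51451 FPKM) and highest in young library 1 (65674 FPKM). Among the other libraries the order of the marker sum was not that of the Nduf sum. The part of cell content in the Nduf level was not tested. As the median over the 42 genes of the deviation from the gene mean on the log2 scale, old library 1 stood at -0.20 and young library 1 at 0.27, while the other old libraries ran from -0.10 to -0.04 and the other young libraries from 0.02 to 0.07. Other protein-coding features that averaged 100 FPKM or more moved the same way, at -0.13 in old library 1 and 0.18 in young library 1. Over all tested features the median deviation was only -0.01 in old library 1 and 0.05 in young library 1, and young library 2 stood higher at 0.06.

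**Figure D3:**
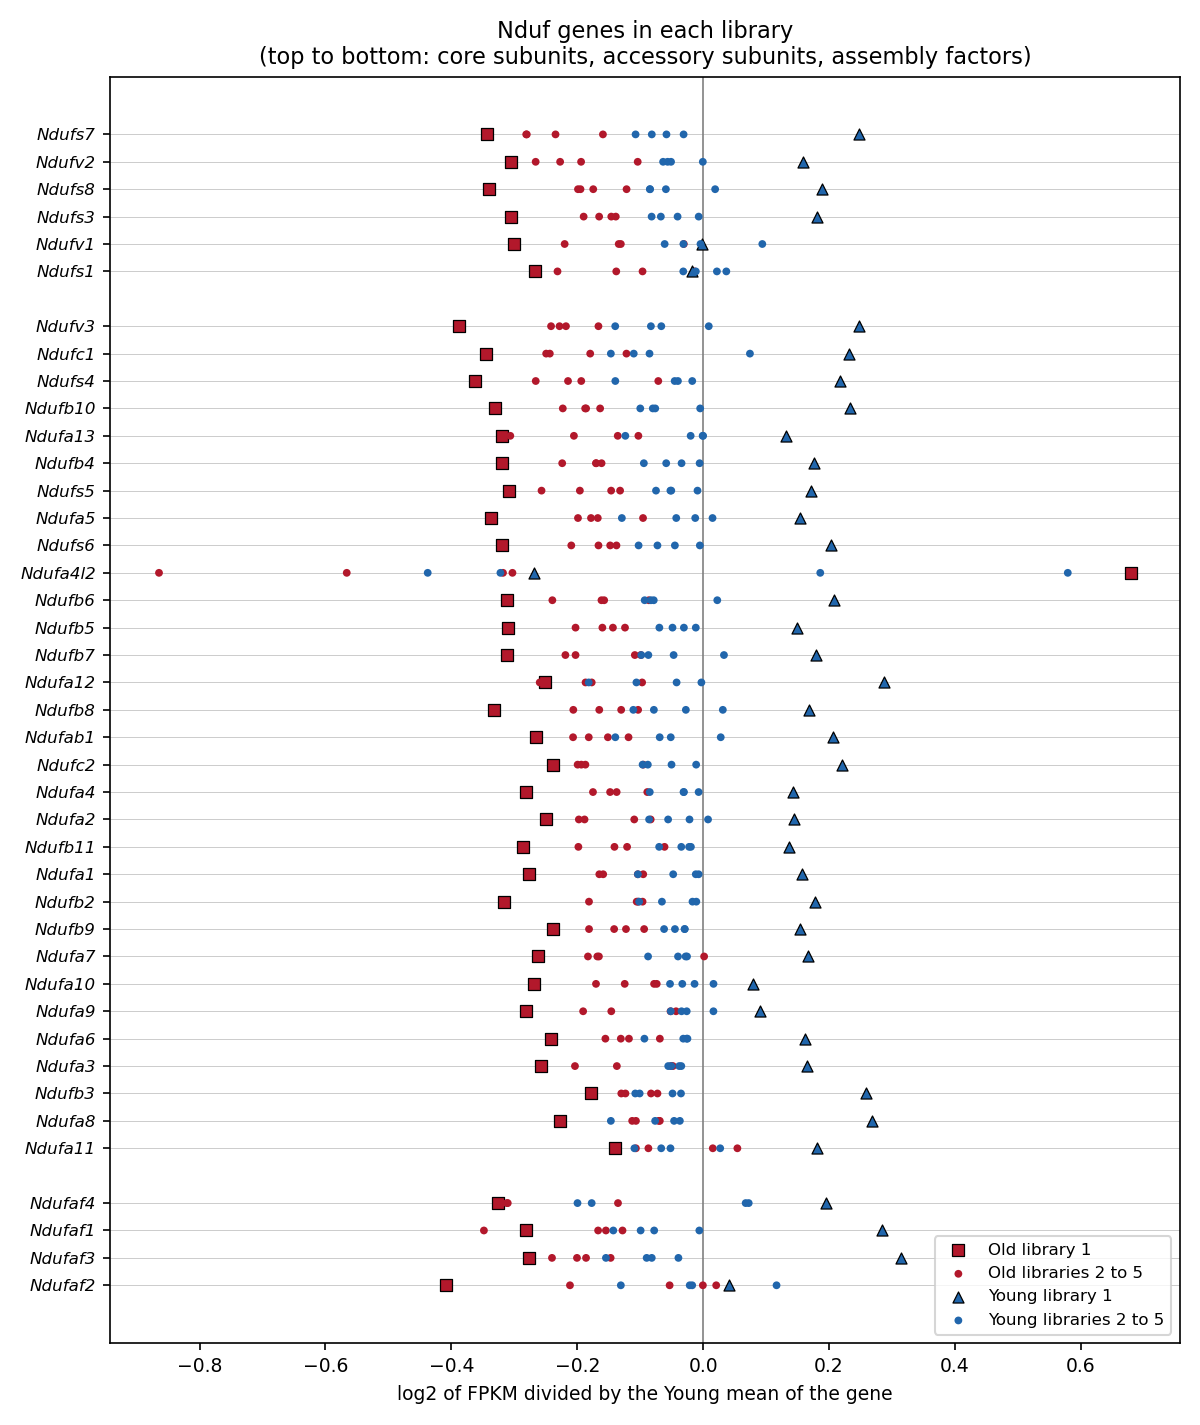
Level of 41 Nduf genes in each library as the log2 of FPKM divided by the young mean of the gene, with core subunits at the top, accessory subunits in the middle and assembly factors at the bottom; red points are old libraries, blue points young libraries, and library 1 of each age has its own symbol. Old library 1 (squares) is the lowest point in 38 of 41 genes and young library 1 (triangles) the highest in 37 of 41.

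The excess of young library 1 differed between the Nduf genes. It was -1.46% of the mean of the other young libraries for Ndufs1 and -0.20% for Ndufv1, both long core subunits. It was 24.5% for Ndufv3, which is similar to Ndufv1 in annotated coding length, though the form of Ndufv3 expressed here was not examined. It was 32.4% for Ndufaf3 and -20.4% for the short gene Ndufa4l2. By coding length, the median log2 excess was 0.22 for the 22 Nduf genes under 500 bases and 0.24 for the 14 of 500 to below 1000 bases, and 0.10 for the 5 of 1000 to below 2000 bases. All tested protein-coding features that averaged 100 FPKM or more had 0.21, 0.19 and 0.10 in the same bins. The deviation of old library 1 showed no such order among the Nduf genes, at -0.14, -0.14 and -0.17. Across the 42 genes the relation with coding length was uneven (Pearson r = -0.30, Spearman rho = -0.05). Fragment length and RNA quality of the libraries are not given in the sources used here, and their part was not tested.

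With library 1 of both ages left out, a setting chosen after the data were seen, the median log2 difference of the 42 genes was -0.11, beside -0.06 for all features, and 41 of 42 genes still lay below 0. With median-ratio scaling, which set the median of all features to 0.00, the Nduf median was -0.12 with 41 genes below 0, and 7 rather than 37 genes were lower at an unadjusted p under 0.05. With both changes together it was -0.04, beside -0.005 for all features, with 37 genes below 0 and 1 at an unadjusted p under 0.05. The shares of all features at that unadjusted p are not given for these settings. In all 22 alternative settings 0 of the 42 genes passed the adjusted threshold, and the smallest adjusted p was 0.0565, for Ndufv2 with limma's array weights.

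**Figure D4:**
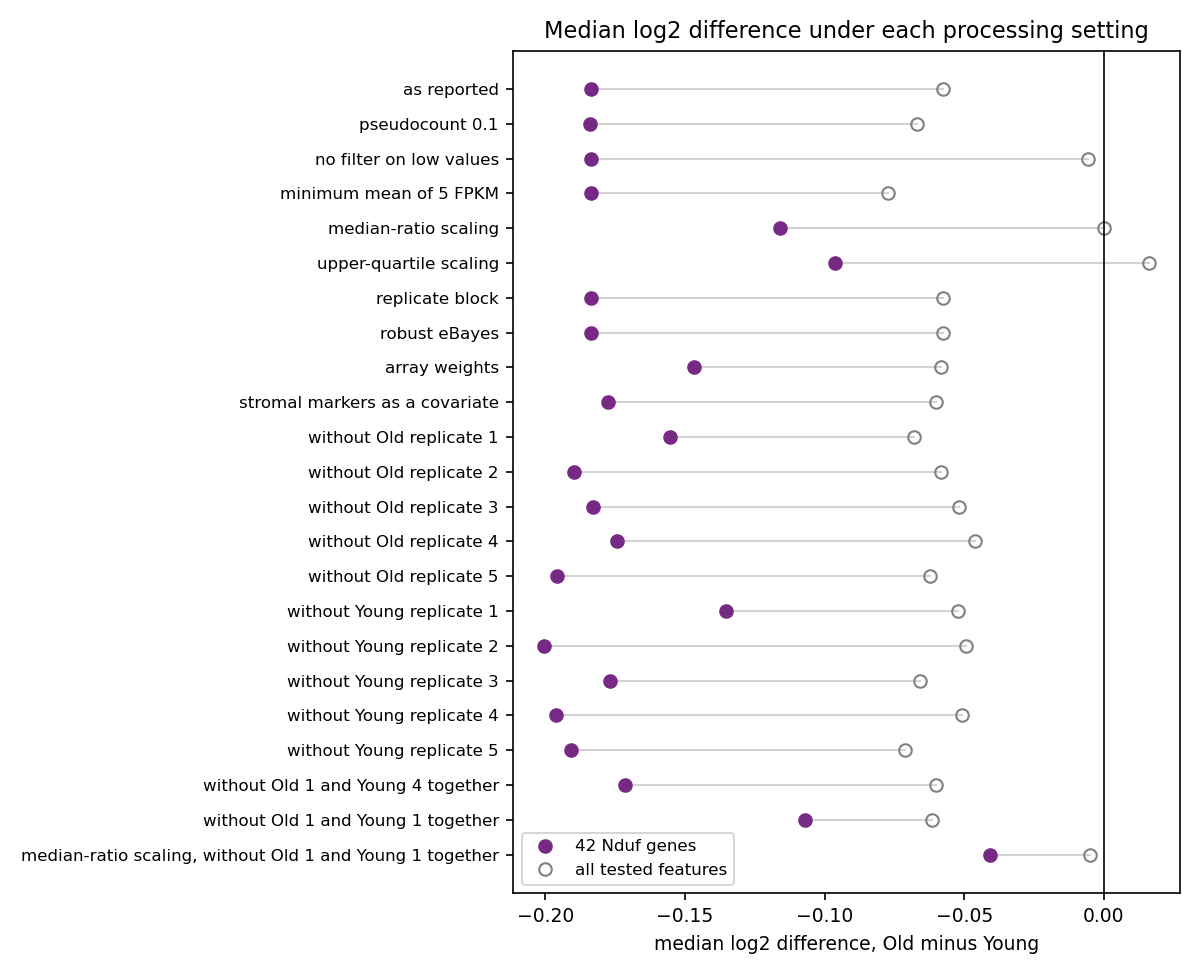
Median log2 difference (old minus young) of the 42 Nduf genes (filled) and of all tested features (open) under the reported setting, at the top, and each alternative. The Nduf median lies below the median of all features in each setting, from -0.20 without young replicate 2 to -0.04 with median-ratio scaling and library 1 of both ages left out.

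The Nduf genes varied together across the libraries. Over the 861 pairs of genes, the median Pearson r across 10 libraries was 0.89, and 0.81 for deviations from the mean of each age, with r above 0.5 in 93.3% of pairs. The pairs share libraries and their scaling, so the values describe these libraries. Ndufa4l2 stood apart with a median r of -0.18 to the other members, followed by Ndufaf2 at 0.62 and Ndufs1 at 0.66, while Ndufs5, Ndufb5 and Ndufs8 had the highest values at 0.94.

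The 7 core subunits encoded by mitochondrial DNA (mt-Nd1 to mt-Nd6 and mt-Nd4l) were listed at 0 in all 10 libraries, so their level cannot be read from these rows. Nuclear features that match them had very high values. Gm10222 (chr1:24619243-24619539 of mm9) matches the whole of mt-Nd4l over 297 bases at 100% identity, and reads of such copies cannot be assigned to the nuclear or the mitochondrial gene. It had 29332, 30535, 33044, 36511 and 32187 FPKM in old CMs, against 19161, 26493, 29477, 27216 and 29287 FPKM in young CMs. Young library 1, the highest in the Nduf genes, was the lowest here, and the ages overlapped only between old library 1 and young library 3. The log2 difference was 0.31 ± 0.12 (SE), with a limma adjusted p of 0.175.

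Gm11407, a pseudogene that matches 1055 bases of mt-Nd5 at 92.4%, averaged 4040 ± 232 FPKM in old CMs and 3263 ± 529 FPKM in young CMs (SD, n = 5 each), a log2 difference of 0.32 with a limma adjusted p of 0.140. Gm11408, which matches the whole of mt-Nd6 at 93.6%, averaged 3874 ± 254 FPKM in old CMs and 3292 ± 412 FPKM in young CMs (SD, n = 5 each), at 0.24 with a limma adjusted p of 0.161. None of the 3 features passed the threshold, and each was above 0 in all settings, from 0.17 to 0.41 on the log2 scale. These 3 differences lay above 0 while those of the 42 nuclear genes lay below it.

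**Figure D5:**
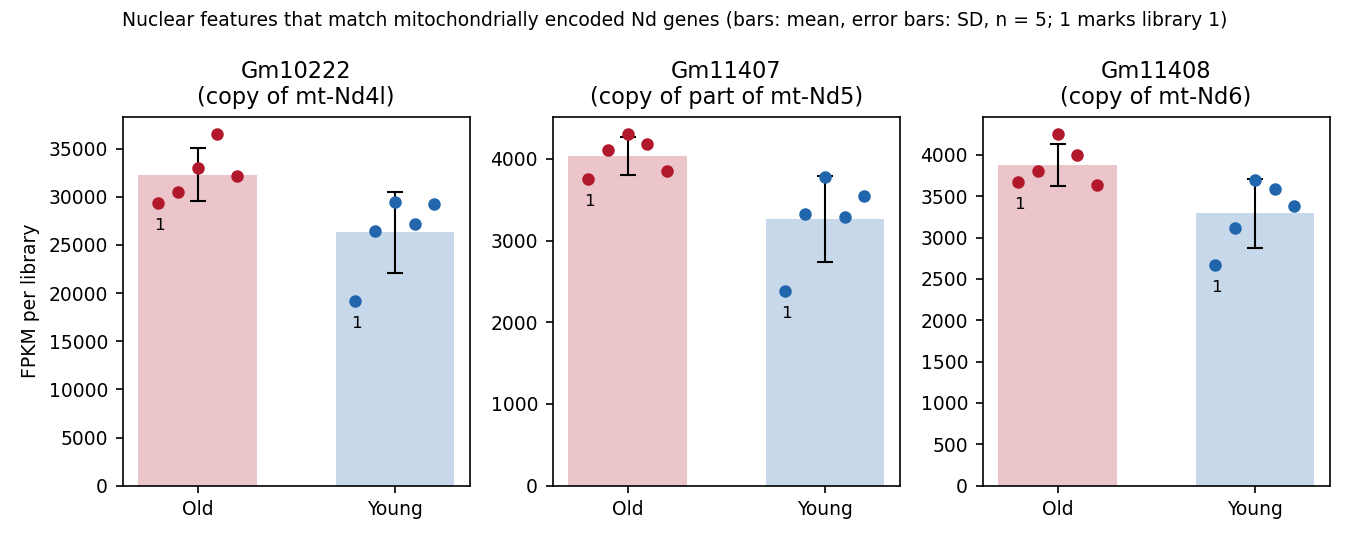
FPKM of 3 nuclear features that match mitochondrially encoded complex I genes in each library, old left of young; points are libraries, bars are means and error bars are SDs of 5 libraries, and library 1 of each age is marked. Means are higher in old CMs in each panel, young library 1 is the lowest point, and the ages overlap.

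Of 13 further assembly factors without an Nduf name, 12 were in the table and Coa1 was not analysed here. All 12 had log2 differences below 0, with a median of -0.14, and 0 of 12 passed the adjusted threshold, while 7 were lower in old CMs at an unadjusted p under 0.05 and 5 had all old libraries below all young ones (17.4% and 5.72% of all features). Ecsit, a scaffold of membrane-arm assembly, averaged 53.8 ± 3.1 FPKM in old CMs and 63.3 ± 4.0 FPKM in young CMs (SD, n = 5 each), a log2 difference of -0.23 with a limma adjusted p of 0.0646. Nubpl, which delivers iron-sulphur clusters, had 6.18, 8.46, 8.13, 6.77 and 7.16 FPKM in old CMs, against 11.1, 10.1, 8.69, 8.76 and 10.9 FPKM in young CMs. Its groups did not overlap, and its log2 difference of -0.39 (limma adjusted p = 0.0667) exceeded in size that of any Nduf gene. Tmem70, at -0.25 (limma adjusted p = 0.0721), and Aifm1, at -0.23 (limma adjusted p = 0.0740), had no overlap either. Chchd4, which imports cysteine-rich subunits together with Aifm1, lay at -0.01, with 21.5 ± 0.8 FPKM in old CMs and 21.8 ± 3.1 FPKM in young CMs (SD, n = 5 each). The later-named Ndufaf5, Ndufaf6, Ndufaf7 and Ndufaf8, which the table lists under other symbols and which were looked up after the names in the table were seen, had log2 differences of -0.22, -0.23, -0.12 and -0.11, and 0 of 4 passed.

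The other complexes of oxidative phosphorylation were used for comparison and had similar medians. The median log2 difference was -0.14 for 4 genes of complex II, -0.16 for 9 of complex III, -0.17 for 12 of complex IV and -0.17 for 15 of the ATP synthase, and all 40 genes lay below 0. In these 40 genes 32 were lower at an unadjusted p under 0.05, beside 37 of the 42 Nduf genes and 17.4% of all features. All old libraries lay below all young ones in 19 of the 40, beside 15 of the 42 Nduf genes and 5.72% of all features. No test of a difference between the complexes was made. Only Cox7a1, the muscle form of a cytochrome oxidase subunit, passed the adjusted threshold, 1 of 40 genes beside 1.78% of all features. It had 2003, 2310, 2196, 2379 and 2440 FPKM in old CMs, against 3365, 2807, 2839, 2791 and 2768 FPKM in young CMs. Its libraries did not overlap, and its log2 difference was -0.36 ± 0.07 (SE) with a limma adjusted p of 0.0404, which ranged from 0.0245 to 0.170 over the alternatives. With any 1 of the 10 libraries left out it missed the threshold, with an adjusted p of at least 0.0501. The 10 cardiomyocyte markers had a median of -0.09, with 1 of 10 above 0.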

How the data were processed

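RNA of purified CMs was sequenced in 5 old and 5 young libraries, grouped by the labelled age. Per the labels and the methods of the study, the authors aligned paired-end reads to mm9 with TopHat, kept unique reads, and used HTSeq and DESeq2 for their own comparison. The authors computed FPKM per library with Cufflinks, and the deposited FPKM were used as given after 1 stray header line was removed. FPKM are relative to the total of a library. The authors' table of fold changes and p-values, with its 10 columns of values per sample, was not used.

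The 12340 features averaging 1 FPKM or more were tested on log2(FPKM + 1) with limma 3.58.1 in R 4.3.3 (lmFit, eBayes with a trend, two-sided), adjusted by Benjamini-Hochberg at 0.05. Log2 differences on this scale understate changes of low features. Single values were also compared by a two-sided exact permutation test of mean FPKM. The fit was also run on simulated data in which each feature varied on its own, unlike the Nduf genes, which varied together. Its outcome is not given here and is not used as support. Gene models are those of the GENCODE annotation of mm9. Sequences were matched with blastn 2.17.0, and near-identical copies of Nduf genes count from 95% identity over 200 bases. Nuclear copies of mitochondrial genes are all tested nuclear features that blastn matched to them, with no minimum identity. Python 3.11.15 and matplotlib 3.10.9 were used for the rest. The depth was read from steps in low values and is approximate.

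Members and lists were chosen with earlier results of these data known. Named genes are, per class, the 4 members with the smallest p, those with the highest and lowest level, those without overlap between the ages, and, of other lists, up to 3 with the smallest p and those that define the list. Others were named after their values were seen. Alternatives were a pseudocount of 0.1, no filter, a minimum of 5 FPKM, median-ratio and upper-quartile scaling, the replicate number as a block, robust eBayes, array weights, stromal markers as a covariate, and leaving out libraries. Ndufb1-ps was not analysed here, and some genes that the rule selects are not reported here.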

Additional observations from a re-analysis of the deposited data

Results flagged for a closer look

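In groups of 5 libraries, a library was picked out when its gap to the nearest other library exceeded 0.71 of the range of its group (Dixon's 95% value). Chance picks out about 1 in 20 groups, and 92 groups were examined. Young library 1 was picked out as the highest young library in 16 of the 42 genes. The ratio was 0.912 for Ndufa3, 0.858 for Ndufb9, 0.822 for Ndufb3, 0.805 for Ndufs7, 0.784 for Ndufaf3, 0.773 for Ndufa7, 0.769 for Ndufb11 and 0.763 for Ndufa8. It was 0.753 for Ndufc2, 0.7501 for Ndufb5, 0.7498 for Ndufa6, 0.749 for Ndufs5, 0.737 for Ndufb10, 0.733 for Ndufs3, 0.732 for Ndufv2 and 0.711 for Ndufaf1. The same library was picked out in the summed level of all members (0.762), of the accessory subunits (0.746) and of the assembly factors (0.756). These genes vary together, so the picks are not independent of each other.

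Among the old libraries, library 1 was picked out as lowest for Ndufa8 (0.711) and as highest for Ndufa4l2 (0.752). Old library 4 was highest for Ndufaf4 (0.922), at 31.1 FPKM where the other old libraries had 27.2 to 27.5 FPKM.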

How the results depend on the processing

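In all 22 alternatives, 0 of the 42 Nduf genes passed the adjusted threshold and their median log2 difference lay below 0. The features called among all tested, 220 in the reported setting (85 higher and 135 lower in old CMs), were 135 with median-ratio scaling (105 higher and 30 lower), 164 with upper-quartile scaling (135 higher and 29 lower) and 26 with the replicate block. They were 42 to 146 with 1 library left out (the lowest without old library 3, the highest without old library 5), 53 without old library 1 and young library 4, 49 without library 1 of both ages and 47 with that and median-ratio scaling. The last 2 settings were chosen after the data were seen. The Nduf genes lower at an unadjusted p under 0.05, 37 in the reported setting, were 7 with median-ratio scaling, 4 with upper-quartile scaling, 21 with the replicate block, 30 to 37 with 1 library left out, and 1 with median-ratio scaling without library 1 of both ages. Shares of all features at that p are not given for the alternatives. The median of the Nduf genes was -0.14 to -0.20 with 1 library left out, and -0.0407 in the last setting. Ndufa11 changed sign, to 0.0186 with median-ratio scaling, 0.0382 with upper-quartile scaling, 0.0189 without library 1 of both ages and 0.0847 with median-ratio scaling as well. In that last setting Ndufa3 (0.00145), Ndufa8 (0.0532), Ndufaf2 (0.0181) and Ndufb3 (0.0374) also lay above 0. The causes were not tested.

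The ages share replicate numbers, but no label gives these a meaning. Deviations of same-numbered libraries correlated at -0.155 to 0.0618, so no pairing by number was seen, though low correlations cannot exclude one. The 26 features called with the replicate block are therefore given without a reading. The median log2 difference of the Nduf genes was -0.18 in the deposited FPKM. The median deviation of a library from the gene means had an SD of 0.07 between the old and 0.10 between the young libraries. With either scaling of the libraries the summed levels of the ages overlapped. Without counts no counting error could be given.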
